A study of Mus musculus with 3 samples.

Results

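Migratory dendritic cell-like cells were 88 of the 5945 cells kept from the myeloid library of arthritic mouse paws at day 9, a share of 1.48% (exact Clopper-Pearson 95% interval, 1.19 to 1.82%), and 88 of the 24485 cells kept from all 3 libraries. They were chosen by raw counts of unique molecular identifiers (UMIs, each standing for 1 captured RNA molecule) of 5 genes. A cell had to meet at least 3 of these 5 conditions: at least 1 UMI of Ccr7, at least 2 of Fscn1, and at least 1 of Cacnb3, Il4i1 or Ccl22. It also had to hold no UMI of C1qa, a macrophage complement gene, or of Ctsk, the osteoclast protease cathepsin K. These 7 genes and H2-Aa, which chose the cells they are set against, are therefore described without being a finding. The stromal libraries held 0 such cells of 11172 at day 5, which allows a share of up to 0.0269%, and 0 of 7368 at day 0, which allows up to 0.0407%.

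Dendritic cells (DCs) take up antigen in tissues, and a part of them then stops sampling, rearranges its cytoskeleton and leaves through lymphatic vessels for the draining lymph node. Ccr7, the receptor for the chemokines Ccl19 and Ccl21, guides that exit, and Fscn1 (fascin) bundles actin in the long processes of mature DCs. Such cells carry peptide on major histocompatibility complex (MHC) molecules together with co-stimulatory ligands, and they also make inhibitory ligands such as PD-L1 and chemokines that draw T cells. The same programme is known from DCs that mature during inflammation, in tumours and at steady state, and is controlled in part by the NF-κB family member RelB.

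The study followed K/BxN serum transfer arthritis, a mouse model in which serum of arthritic K/BxN mice, rich in antibodies to glucose-6-phosphate isomerase, causes a joint inflammation that resolves. Myeloid cells (CD45+CD11b+Ly6G-) came from hind paws at day 9, and CD45- stromal cells from hind paws at day 5 and, in the steady state, at day 0. Skin, muscles and tendons were removed, the paws were digested with collagenase IV and DNase, and sorted cells were run on the 10x Genomics 3′ v3.1 kit. There was 1 library for each of these 3 groups, the labels used here do not give the strain, age, sex or number of mice, and no untreated or earlier myeloid library was analysed here. The sort on CD11b sets which DCs could enter the library, so a share of cells given here refers to the sorted material alone. With 1 library a group no difference could be tested, and each interval below covers counting error only.

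The migratory DC-like cells had a median of 6989.5 UMIs, with a lowest of 1119 and a highest of 51008. They were set against cells of the same library that were not chosen by a DC gene and against cells that were. The first were 1382 H2-Aa-high cells, which held at least 10 UMIs of the MHC class II gene H2-Aa and none of Ccr7, with a median of 7957.5 UMIs. The second were 172 conventional DC-like (cDC-like) cells among them, which held no C1qa or Ctsk and at least 2 of the DC markers Flt3, Zbtb46, Cd209a, Clec9a, Xcr1 and Dpp4, with a median of 8165 UMIs. Levels are counts per 1000000 UMIs (CPM) summed over a group, with exact Poisson intervals, and values per cell are UMIs per 10000. Levels of different genes are not compared, because 3′ counts depend on each transcript's end.

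Of the migratory DC-like cells, 34 met all 5 conditions, 27 met 4 and 27 met 3. Ccr7 (chr11:99144196-99155077, minus strand, GRCm38) was found in 82 cells, and the 6 others were chosen by the remaining markers. Ccr7 ranged from 0 to 94.4 UMIs per 10000 with a median of 22.7 in these cells. Fscn1 (chr5:142960343-142973185) ranged from 0 to 70.9 with a median of 16.4, and Ccl22 (chr8:94745590-94751699), a chemokine for Ccr4+ T cells, from 0 to 123 with a median of 4.79. Cacnb3, a calcium channel subunit, ranged from 0 to 21.1 with a median of 3.09, and Il4i1, an amino acid oxidase that restrains T cells, from 0 to 56.6 with a median of 9.13. Ccl22 was found in 60 of the 88 cells and Fscn1 in 66, the lowest counts among these 5 genes.

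Each marker was also looked at in cells chosen by the other 4, so that its own count did not enter. Among cells with at least 3 of the other 4 markers and no C1qa or Ctsk, Ccr7 was found in 61 of 67 cells, Il4i1 in 60 of 66, Cacnb3 in 57 of 73, Fscn1 in 54 of 76 and Ccl22 in 49 of 77. The level of Ccr7 in those 67 cells was 2112 CPM. It was 44.0 CPM in T and natural killer (T/NK)-like cells, 28.1 CPM in C1qa-high macrophage-like cells and 7.10 CPM in neutrophil-like cells. All cells chosen by the other 4 markers also met the gate, so these counts describe it and do not test the cells' name. The 88 cells held 68.1% of the Cacnb3 UMIs of all kept cells, 64.6% of those of Ccl22, 63.7% of those of Fscn1 and 48.6% of those of Ccr7, while holding 1.17% of all UMIs.

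At the threshold, the 27 cells that met exactly 3 conditions had 1346 CPM of Ccr7 and 531 CPM of Ccl22, against 403 and 59.3 CPM in the 22 cells without C1qa and Ctsk that met exactly 2. Genes that the gate did not use went both ways. The cells just inside had 3052 CPM of Fabp5 and 1668 CPM of Tbc1d4, against 2221 and 1000 CPM in the cells just outside. Ccl5 ran the other way, at 98.5 CPM in the cells just inside and 1093 CPM in those just outside. The condition on C1qa and Ctsk took out more cells: 143 kept cells met at least 3 conditions, and 55 of them were left out, 30 for C1qa alone, 14 for Ctsk alone and 11 for both. Ctsk was at 0 in 64.6% of kept cells and C1qa in 52.3%, so a UMI of either was common in the library. Of the 88 cells, 80 also held at least 10 UMIs of H2-Aa.

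Libraries were sequenced to 69430907 to 122224428 UMIs, and median UMIs of kept cells lay between 6741 and 9802 across the 3. The myeloid library shared 35 cell barcodes with the day 5 stromal library and 22 with the day 0 stromal library. A doublet caller found 0 doublets among 7795 barcodes and had therefore not worked, and removing the 486 barcodes of highest doublet score took away 7 of the 88 cells. When all kept cells of the library were clustered, 67 of the 88 fell in a cluster of 89 cells led by Fscn1, Ccl22 and Ccr7. Of the 89 cells, 87 met at least 3 of the gate's 5 marker conditions, whatever their C1qa and Ctsk. Of the other migratory DC-like cells, 15 lay in a cluster of 513 cells led by Ifitm1, Klrd1 and Ffar2. The remaining 6 lay in a cluster of 208 cells led by Ikzf2, Ctla4 and Tnfrsf4. How far they stood alone depended on the resolution: at 0.5 in place of 1, 82 of the 88 lay in a cluster of 608 cells and made up 13.5% of it, and at 2, 80 lay in a cluster of 150 cells and made up 53.3% of it.

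Transcripts of other cell types were read as sums over marker lists, without C1qa and Ctsk, which are at 0 in migratory DC-like and cDC-like cells by choice. The summed level of the 9 other macrophage markers, all found, was 365 CPM in migratory DC-like cells, against 683 CPM in cDC-like and 5506 CPM in H2-Aa-high cells. That of the 6 other osteoclast markers was 131 CPM in migratory DC-like cells (5 of 6 found, Calcr at 0), against 87.6 CPM in cDC-like and 2059 CPM in H2-Aa-high cells. The choice of cells without C1qa and Ctsk bears on these sums too. The 9 neutrophil markers summed to 142 CPM in migratory DC-like, 69.7 CPM in cDC-like and 2174 CPM in H2-Aa-high cells, with Retnlg, Ly6g and Ltf at 0. Those of T and natural killer (T/NK) cells summed to 167 CPM in migratory DC-like, 178 CPM in cDC-like and 121 CPM in H2-Aa-high cells, with Ncr1, Klrb1c and Gzma at 0. At least 3 of the 10 T/NK markers were found in 9 of the 88 migratory DC-like cells, 10.2% (exact interval, 4.78 to 18.5%), against 13 of 172 cDC-like cells (7.56%) and 92 of 1382 H2-Aa-high cells (6.66%).

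These 9 cells had a median of 12039 UMIs. They held Cd2 and Icos in 9 of 9 cells, Ctla4 and Gata3 in 8, Cd3e in 7 and Foxp3, the regulatory T cell factor, in 6. The other 79 migratory DC-like cells held 0 UMIs of Cd3e, Cd3d, Cd3g, Cd2, Foxp3, Ctla4 and Gata3. All 6 of the 88 cells in the cluster led by Ikzf2, Ctla4 and Tnfrsf4 were among the 9. Whether they are captures of a DC together with a T cell was not tested. Il2ra, the interleukin-2 receptor alpha chain, was also outside them, being found in 33 of the other 79 cells at 144 CPM. It was at 32.0 CPM in cDC-like cells, found in 11 of 172, and at 31.4 CPM in H2-Aa-high cells. Cells with T/NK markers were kept in these 2 comparison groups.

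Over all genes, the differences from cDC-like cells and from H2-Aa-high cells ran in both directions, and more genes were lower than higher. Of 7827 genes with at least 20 UMIs over both groups, 643 (8.22%) were at least 2-fold higher in migratory DC-like than in cDC-like cells and 1173 (15%) at least 2-fold lower. Against H2-Aa-high cells, 1006 of 10960 genes (9.18%) were at least 2-fold higher and 2260 (20.6%) at least 2-fold lower. The split depended on scaling: TMM scaling gave 816 higher and 903 lower against cDC-like cells, and 1400 higher and 1623 lower against H2-Aa-high cells. It moved every log2 ratio up by 0.17 and 0.24 in these comparisons, and the median log2 ratio of all genes was -0.19 and -0.28. Among genes with at least 50 CPM in the higher group, 376 (11.1%) were higher and 398 (11.8%) lower than in cDC-like cells, and 409 (11.8%) were higher and 517 (14.9%) lower than in H2-Aa-high cells. The comparison with H2-Aa-high cells is the one the gate was built on and is given as a description. These shares are the background for the counts of listed genes below.

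The migratory programme beyond the gate was the list with the most genes higher. It held 42 genes known from mature, migrating DCs; 38 of 40 measured genes were at least 2-fold higher than in cDC-like cells and 0 lower, with a median log2 ratio of 3.03, and 38 of 41 were higher than in H2-Aa-high cells, with a median of 2.97. Such cells are usually defined by the gate's own markers, so the list is close to the gate itself. Tmem123, a surface mucin-like protein, ranged from 0 to 81.4 UMIs per 10000 with a median of 20.7 in migratory DC-like cells, against 0 to 23.9 with a median of 1.95 in cDC-like cells. Its level was 2115 CPM in migratory DC-like cells, against 224 CPM in cDC-like cells, a ratio of 9.43. The ranges overlapped, but 85 of the 88 cells lay above the cDC-like median and 38 above the highest cDC-like cell.

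Socs2 (chr10:95385362-95417180, minus strand), a suppressor of cytokine signalling downstream of STAT5, ranged from 0 to 35.7 UMIs per 10000 with a median of 3.97 in migratory DC-like cells, against 0 to 7.95 with a median of 0 in cDC-like cells. It was at 453 CPM in migratory DC-like cells, 10.9 CPM in cDC-like cells and 9.88 CPM in H2-Aa-high cells, which gave ratios of 41.7 (25.6 to 72.4) and 45.8 (37.7 to 56.0). When each cell was thinned to 2000 UMIs, Socs2 was found in 54.8% of 84 migratory DC-like cells and in 2.92% of 171 cDC-like cells. The shares before thinning were 76.1% and 6.4%. The thinned share was 0.893% in C1qa-high cells, whose median was 6587 UMIs, and 0% in 81 neutrophil-like cells, whose median was 13104 UMIs, which gives the level of background.

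Tbc1d4, a Rab GTPase-activating protein, was at 1807 CPM in migratory DC-like cells, 371 CPM in cDC-like cells and 126 CPM in H2-Aa-high cells. It ranged from 0 to 87.5 UMIs per 10000 in migratory DC-like and from 0 to 48.9 in cDC-like cells, and 84 of the 88 cells lay above the cDC-like median. Nudt17, of the Nudix hydrolase family, had the highest ratio over H2-Aa-high cells among the named genes: 103 CPM in migratory DC-like cells, 0 in cDC-like cells and 0.329 CPM in H2-Aa-high cells. The ratio was at least 53.8 over cDC-like cells, counted against the limit of 3 UMIs, and 313 (128 to 993) over H2-Aa-high cells. Nudt17 was found in 37 of the 88 cells, which held 63.8% of its UMIs in the library. Adcy6, an adenylate cyclase, had 97.5 CPM in migratory DC-like cells, against 0.639 CPM in cDC-like and 0.725 CPM in H2-Aa-high cells. Cd63, a tetraspanin of late endosomes, separated the comparisons, at 939 CPM in migratory DC-like, 90.8 CPM in cDC-like and 603 CPM in H2-Aa-high cells.

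**Figure D1:**
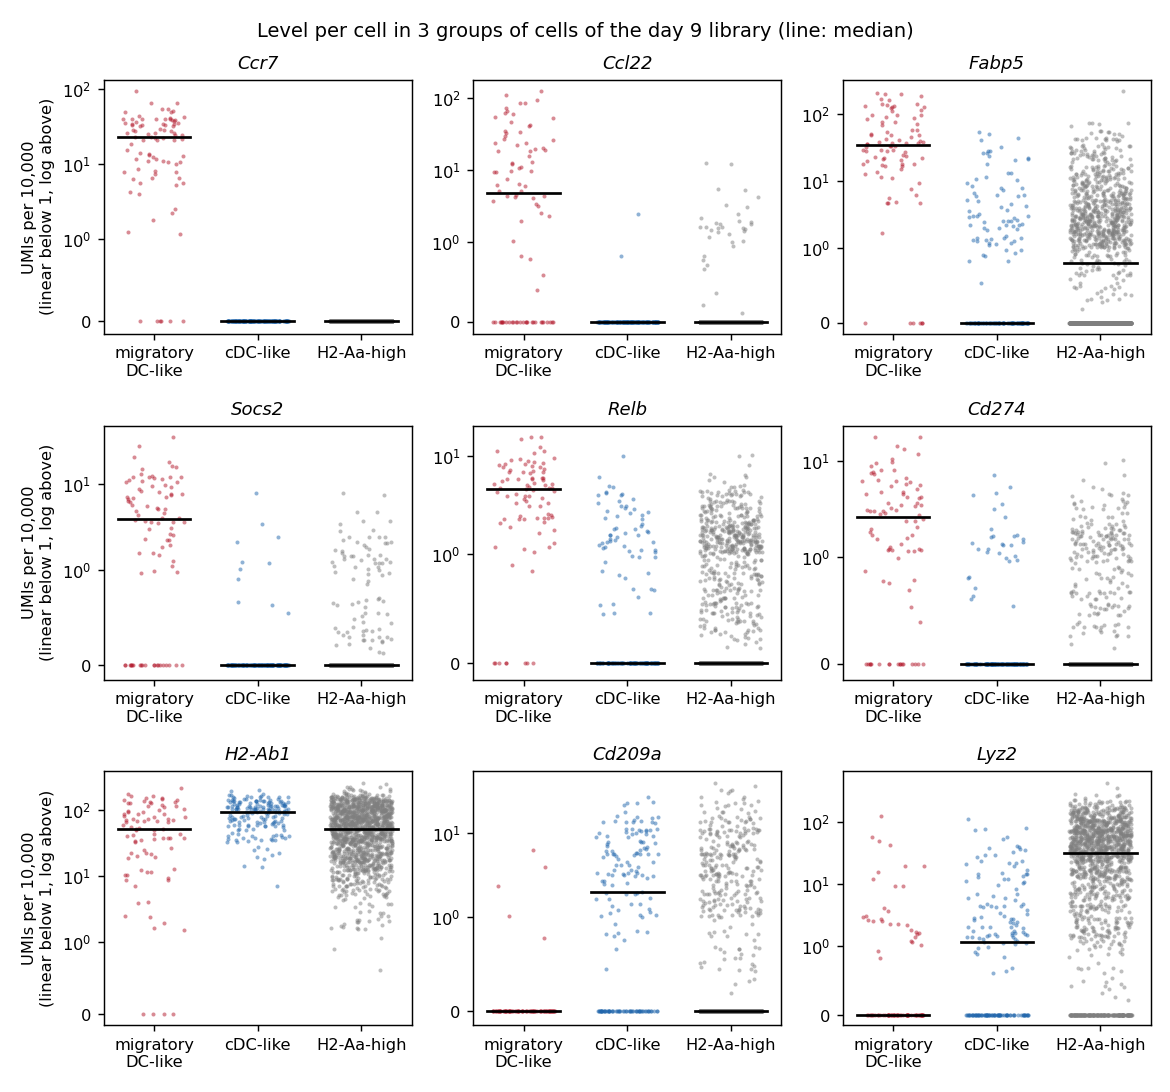
Level per cell of 9 genes in migratory DC-like, cDC-like and H2-Aa-high cells of the day 9 myeloid library, in UMIs per 10000 on an axis that is linear below 1 and logarithmic above. Each point is a cell and each line a median; the medians of Fabp5 were 34.3 in migratory DC-like cells, 0 in cDC-like cells and 0.799 in H2-Aa-high cells, and those of Lyz2 were 0, 1.19 and 31.8 in the same groups.

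Fabp5 (chr3:10012548-10016607), a cytosolic fatty acid-binding protein, was found in 82 of the 88 migratory DC-like cells. It ranged from 0 to 205 UMIs per 10000 with a median of 34.3 in them, against 0 to 53.0 with a median of 0 in cDC-like cells. Its level was 5100 CPM in migratory DC-like cells, 408 CPM in cDC-like cells and 422 CPM in H2-Aa-high cells, a ratio of 12.5 (11.5 to 13.6) over cDC-like cells. At 2000 UMIs a cell, 91.7% of migratory DC-like cells held a Fabp5 UMI, against 26.9% of cDC-like cells, with 30.2% in C1qa-high cells. Of 16 genes of sterol and lipid handling measured, Fabp5 was the 1 at least 2-fold higher than in cDC-like cells, and Apoe and Insig1 were the 2 lower. Apoe and Plin2, a lipoprotein and a lipid droplet coat, were at 116 and 87.8 CPM in migratory DC-like cells, against 283 and 122 CPM in cDC-like cells.

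Among 12 chemokine genes measured against cDC-like cells, 4 were at least 2-fold higher and 6 lower, with a median log2 ratio of -0.78. Those higher were Ccl5, Cxcl16, Ccl17 and Cxcl1. Cxcl16, a membrane-anchored ligand of Cxcr6, was found in 88 of 88 migratory DC-like cells. It ranged from 0.986 to 38.7 UMIs per 10000 with a median of 12.2 in them, against 0 to 21.7 with a median of 1.41 in cDC-like cells. Its level was 1087 CPM in migratory DC-like cells, against 306 CPM in cDC-like cells. Ccl17, which shares the receptor Ccr4 with Ccl22, was found in 11 of 88 migratory DC-like cells at 224 CPM, against 7 of 172 cDC-like cells at 36.4 CPM.

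Ccl5, a chemokine that draws T cells, was found in 42 of the 88 cells and was unevenly spread, from 0 to 257 UMIs per 10000 with a median of 0. It was at 98.5 CPM in the 27 cells that met 3 conditions, at 2076 CPM in the 27 that met 4 and at 1511 CPM in the 34 that met 5. The 79 migratory DC-like cells without T/NK markers had 1508 CPM of Ccl5. All cDC-like cells, with T/NK markers or without, had 97.8 CPM, and T/NK-like cells had 1131 CPM. The genes lower were Ccl2, Ccl3, Ccl4, Ccl6, Ccl7 and Cxcl10, chemokines of inflamed tissue. Ccl2 was at 13.9 CPM in migratory DC-like cells and 125 CPM in cDC-like cells, and Ccl4 at 176 CPM in migratory DC-like cells and 676 CPM in cDC-like cells. Ccl3 and Ccl7 were 3.17-fold and 10.4-fold lower than in cDC-like cells. Ccl2 was 8.99-fold lower (4.79 to 19.0), with a UMI in 3 of 88 cells.

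Receptors for chemoattractants were mostly lower. Of 7 chemoattractant receptors measured against cDC-like cells, 1 was at least 2-fold higher and 4 lower. The gene higher was Gpr183, the oxysterol receptor that positions DCs in lymphoid organs, at 378 CPM in migratory DC-like cells, against 173 CPM in cDC-like and 114 CPM in H2-Aa-high cells. Ccr2, the receptor that brings monocytes to inflamed tissue, was at 178 CPM in migratory DC-like and 538 CPM in cDC-like cells, and at 2000 UMIs it was found in 11.9% of migratory DC-like and 52% of cDC-like cells. Ccr1 and Cx3cr1 were 8.10-fold and 6.31-fold lower than in cDC-like cells. Cxcr5, the receptor for Cxcl13, had 10 UMIs in 9 of 88 migratory DC-like cells, against 0 in cDC-like cells, which is too few for a ratio.

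For the chemokines of migratory DC-like cells, the receptor-bearing cells in the same library were looked at. Ccr4 was found in 1 of 88 migratory DC-like cells, in 2 of 172 cDC-like cells, in 0.357% of C1qa-high cells and in 14 of 147 T/NK-like cells, 9.52% (5.31 to 15.5%). Cxcr6 was found in 3.41% of migratory DC-like cells, in 2.91% of cDC-like cells and in 33.3% of T/NK-like cells. T/NK-like cells had a median of 6930 UMIs, near that of migratory DC-like cells. Since the sort was for CD11b+ cells, these T/NK-like cells are not a sample of the lymphocytes of the paw.

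The ligands of Ccr7 were read in the stromal libraries, which are from other time points. Ccl19 was at 315 CPM in stromal cells at day 5, against 114 CPM at day 0, a ratio of 2.75 (2.69 to 2.81). Of 16285 genes measured between these libraries, 4.01% were at least 2-fold higher at day 5 and 3.36% at least 2-fold lower. Ccl21a had a level of 11.4 CPM at day 5, against 11.7 CPM at day 0. Flt3l, the DC growth factor whose receptor Flt3 was found in 69 of the 88 migratory DC-like cells, differed little between the days, with a ratio of 0.976 (0.919 to 1.04) for day 5 over day 0. Tnfsf11 (RANKL) had 7.19 CPM at day 5, against 2.73 CPM at day 0, and its receptor Tnfrsf11a was at 98.9 CPM in migratory DC-like cells, against 30.7 CPM in cDC-like cells. Day and library cannot be told apart in these stromal values, and Ccl22 had 0 UMIs in both libraries.

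Genes of the cytoskeleton and motility were mostly even with cDC-like cells or higher: 9 of 21 measured were at least 2-fold higher and 1 lower, with a median log2 ratio of 0.53. Marcks, a membrane-bound actin cross-linker, was found in 88 of 88 cells. It ranged from 1.59 to 84.9 UMIs per 10000 with a median of 14.7 in migratory DC-like cells, against 0 to 15.7 with a median of 1.40 in cDC-like cells. Its level was 1897 CPM in migratory DC-like cells, against 222 CPM in cDC-like and 334 CPM in H2-Aa-high cells. Beta-actin (Actb) itself had a median of 338 UMIs per 10000 in migratory DC-like cells and of 188 in cDC-like cells, and was 1.74-fold higher. Tmsb4x, which binds actin monomers, was 2.18-fold higher, and Lsp1, an F-actin binding protein of leukocytes, 2.2-fold. Swap70, an actin-binding signalling protein, Myo1g, a class I myosin of blood cells, and Samsn1, a signalling adaptor, were 3.49-, 4.29- and 10.4-fold higher. Tubb2b, a beta-tubulin, had 58.5 CPM in 16 of 88 migratory DC-like cells and 0 in cDC-like cells. Vim, the intermediate filament of mesenchymal and myeloid cells, was at 1400 CPM in migratory DC-like, 2061 CPM in cDC-like and 3187 CPM in H2-Aa-high cells.

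Co-stimulatory genes were higher or level, with 0 at least 2-fold lower. Against cDC-like cells 7 of 11 measured were at least 2-fold higher and 0 lower (median log2 ratio 1.19), and against H2-Aa-high cells 9 of 13 and 0 (1.76). Cd40, the receptor through which T cells license DCs, was at 199 CPM in migratory DC-like cells, 38.4 CPM in cDC-like cells and 30.4 CPM in H2-Aa-high cells. Cd83, which stabilises MHC class II at the surface, was at 757 CPM in migratory DC-like cells, 236 CPM in cDC-like cells and 200 CPM in H2-Aa-high cells. Icosl, the ligand of Icos, was at 194 CPM in migratory DC-like cells, 78.0 CPM in cDC-like cells and 27.9 CPM in H2-Aa-high cells. The B7 ligands of Cd28 differed less: Cd80 was 2.02-fold higher than in cDC-like cells and Cd86 1.14-fold lower. At 2000 UMIs a cell Cd86 was found in 42.9% of migratory DC-like and 43.9% of cDC-like cells. Tnfrsf4 and Tnfrsf9, which T cells also express, were 2.29- and 4.83-fold higher than in cDC-like cells. Without the 9 cells that held T/NK markers they were at 83.5 and 169 CPM in migratory DC-like cells, against 52.4 and 47.9 CPM in cDC-like cells. The cDC-like cells kept their 13 cells with T/NK markers in these values. Tnfrsf4 was found in 27 of the 79 migratory DC-like cells left and 12 of 172 cDC-like cells, and Tnfrsf9 in 44 and 13.

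Genes that restrain immune responses were split by kind. Of 16 measured against cDC-like cells, 8 were at least 2-fold higher and 3 lower. Cd274, which encodes the PD-1 ligand PD-L1, ranged from 0 to 18.05 UMIs per 10000 with a median of 2.64 in migratory DC-like cells, against 0 to 7.29 with a median of 0 in cDC-like cells. Its level was 309 CPM in migratory DC-like cells, 29.4 CPM in cDC-like cells and 21.6 CPM in H2-Aa-high cells, a ratio of 10.5 (7.63 to 14.8) over cDC-like cells. At 2000 UMIs it was found in 47.6% of migratory DC-like and 4.68% of cDC-like cells, with 2.77% in C1qa-high cells. Pdcd1lg2 (PD-L2) was at 37.6 CPM in migratory DC-like and 10.9 CPM in cDC-like cells, and Cd200, an inhibitory ligand for myeloid cells, at 350 CPM in migratory DC-like and 10.2 CPM in cDC-like cells. Other inhibitory genes lay on the other side: Vsir (VISTA) was at 39.0 CPM in migratory DC-like and 121 CPM in cDC-like cells, and Lgals9 (galectin-9) at 20.9 CPM in migratory DC-like and 78.0 CPM in cDC-like cells. Of the enzymes of tolerogenic DCs, Aldh1a2, which makes retinoic acid, had 22 UMIs in 5 of 88 cells, and Ido1 had 2 UMIs.

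**Figure D2:**
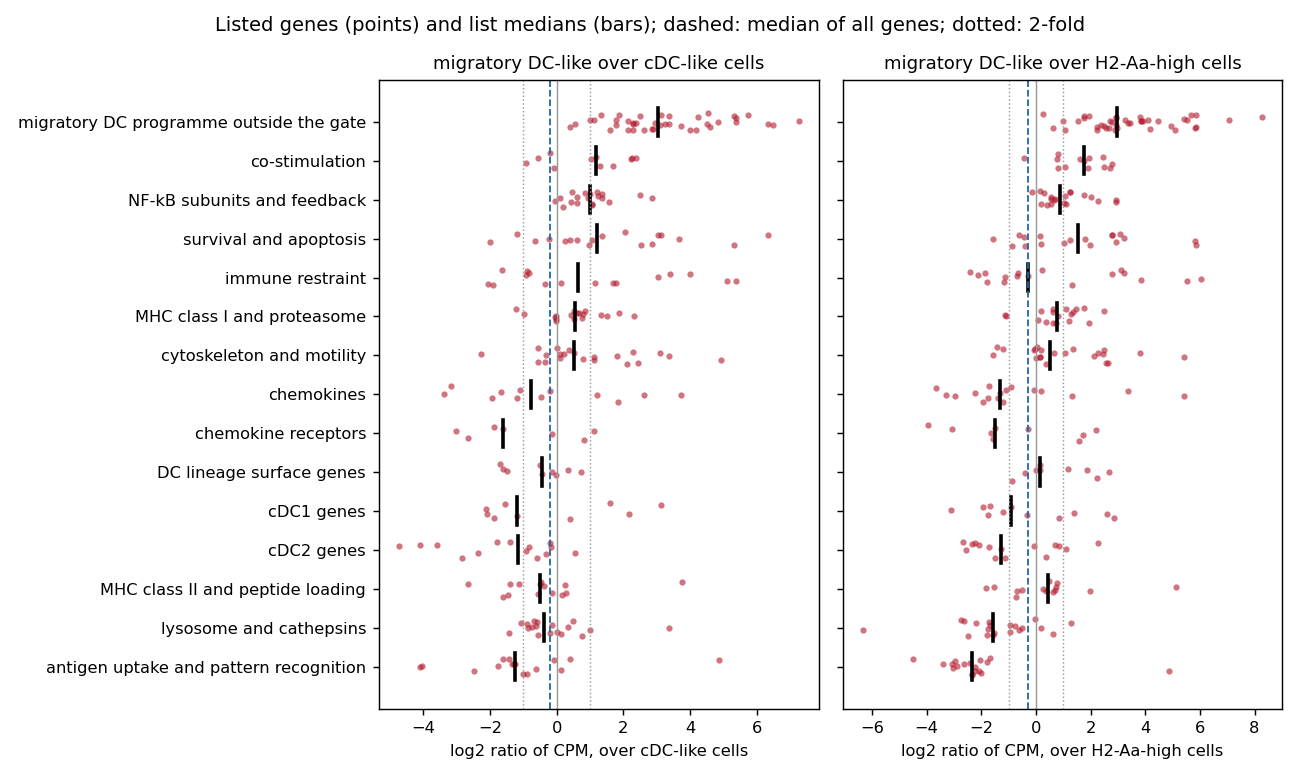
Log2 ratio of CPM in migratory DC-like cells over cDC-like cells (left) and over H2-Aa-high cells (right), with a point for each measured gene of 15 lists and a bar for each list's median. Dashed lines mark the median of all genes, at -0.19 over cDC-like cells and -0.28 over H2-Aa-high cells, and dotted lines 2-fold; the migratory programme lies highest, with a median of 3.03 over cDC-like cells.

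Cytokine genes gave few differences: 1 of 9 measured was at least 2-fold higher than in cDC-like cells and 1 lower. The gene higher was Il12b (chr11:44400063-44414033), the p40 chain of interleukin-12 and interleukin-23. It had 124 UMIs in 14 of the 88 migratory DC-like cells, 15.9% (8.98 to 25.2%), with 0 to 54.0 UMIs per 10000, against 0 of 172 cDC-like cells and 2 of 1382 H2-Aa-high cells. The 88 cells held 54.6% of the library's Il12b UMIs. The partner chains were not detected at this depth: Il12a and Il23a had 0 UMIs, and a count of 0 over 717609 UMIs allows up to 4.18 CPM. Il1b, which many myeloid cells make, was at 1590 CPM in migratory DC-like cells, 2406 CPM in cDC-like cells and 1659 CPM in H2-Aa-high cells. Il15ra, which presents interleukin-15 to lymphocytes, was at 34.8 CPM in migratory DC-like and 2.56 CPM in cDC-like cells.

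MHC class II genes were near the level of cDC-like cells or below it. Since the H2-Aa-high and cDC-like cells had to hold 10 UMIs of H2-Aa, the other class II genes are partly set by that choice in them. H2-Ab1 ranged from 0 to 220 UMIs per 10000 with a median of 52.2 in migratory DC-like cells, against 7.09 to 204 with a median of 95.3 in cDC-like cells, and was 1.4-fold lower. H2-Eb1 and the invariant chain Cd74 were 1.09-fold and 1.3-fold lower than in cDC-like cells. The peptide exchange factors H2-DMa and H2-DMb1 were 2.75-fold and 3.06-fold lower than in cDC-like cells, and Ciita, the class II transactivator, 1.47-fold. March1, the ubiquitin ligase that removes class II and Cd86 from the surface of immature DCs, was at 12.5 CPM in migratory DC-like cells, 78.6 CPM in cDC-like cells and 44.0 CPM in H2-Aa-high cells. The exception was H2-Eb2, a class II beta gene, which had 304 CPM in migratory DC-like cells, 22.4 CPM in cDC-like cells and 8.63 CPM in H2-Aa-high cells and was found in 72 of the 88. Over the list, 1 of 14 genes was at least 2-fold higher and 5 lower than in cDC-like cells.

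In the MHC class I pathway 4 of 18 genes were at least 2-fold higher and 1 lower than in cDC-like cells, with a median log2 ratio of 0.56. Psme2, a subunit of the proteasome activator PA28, was at 923 CPM in migratory DC-like and 252 CPM in cDC-like cells, and Tap2, a subunit of the peptide transporter, at 116 CPM in migratory DC-like and 46.0 CPM in cDC-like cells. Nlrc5, the class I transactivator, was 2.85-fold higher and the class I gene H2-Q7 4.99-fold higher, while H2-K1 and H2-D1 were 1.59- and 1.52-fold higher. H2-Q7 has near-identical neighbours, so its counts may be split among them. Pdia3, a chaperone of peptide loading, was 2.35-fold lower.

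Genes for the uptake and sensing of antigen were lower. Of 16 measured against cDC-like cells 10 were at least 2-fold lower and 1 higher, and of 18 measured against H2-Aa-high cells 17 were lower and 1 higher (median log2 ratio -2.35). The Fc receptors Fcgr1 and Fcgr2b were at 13.9 and 85.0 CPM in migratory DC-like cells, against 77.3 and 205 CPM in cDC-like cells. The mannose receptor Mrc1 was at 26.5 CPM in migratory DC-like and 70.9 CPM in cDC-like cells, and Tlr2, a sensor of bacterial lipoproteins, at 55.7 CPM in migratory DC-like and 132 CPM in cDC-like cells. Lyz2, the lysozyme of macrophages and monocytes, had a median of 0 UMIs per 10000 in migratory DC-like, 1.19 in cDC-like and 31.8 in H2-Aa-high cells. The gene higher was Ly75 (DEC-205), an endocytic receptor of DCs, at 73.9 CPM in migratory DC-like, 2.56 CPM in cDC-like and 2.5 CPM in H2-Aa-high cells. The direction of the list over cDC-like cells changed when the condition on C1qa and Ctsk was dropped for migratory DC-like cells alone. Its median log2 ratio was then 0.19, against -1.25 with the condition. The cDC-like cells held no C1qa or Ctsk in either comparison.

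Lysosomal genes stood apart from H2-Aa-high cells, with 11 of 20 at least 2-fold lower and 1 higher, and less from cDC-like cells, with 2 of 18 lower and 2 higher. Cathepsin D (Ctsd) was at 141 CPM in migratory DC-like cells, 225 CPM in cDC-like cells and 863 CPM in H2-Aa-high cells, and cathepsin B (Ctsb) at 280 CPM in migratory DC-like, 421 CPM in cDC-like and 1289 CPM in H2-Aa-high cells. Ctsh, another cathepsin, ran the other way at 832 CPM in migratory DC-like, 486 CPM in cDC-like and 341 CPM in H2-Aa-high cells. H2-Aa-high cells include macrophage-like cells with C1qa, of which there were 571. Against the 519 H2-Aa-high cells with C1qa and Ctsk at 0, 680 genes were at least 2-fold higher in migratory DC-like cells and 1757 lower.

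NF-κB subunits and their regulators were higher or level. Of 19 measured against cDC-like cells 10 were at least 2-fold higher and 0 lower, with a median log2 ratio of 1.01. Relb (chr7:19606217-19629438, minus strand) ranged from 0 to 15.6 UMIs per 10000 with a median of 4.54 in migratory DC-like cells, against 0 to 9.95 with a median of 0 in cDC-like cells. It was at 428 CPM in migratory DC-like cells and 75.4 CPM in cDC-like cells, a ratio of 5.67, and 80 of the 88 cells lay above the cDC-like median. Its partner Nfkb2 was 2.32-fold higher, Rel 2.96-fold, Map3k14, the kinase that drives Nfkb2 processing, 2.36-fold, and Birc2, which acts in the same pathway, 7.2-fold. The subunits Rela and Nfkb1 were 1.36-fold and 1.37-fold higher, below the 2-fold mark. The feedback inhibitors Nfkbia and Tnfaip3 were 1.91-fold and 1.52-fold higher.

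Proximal promoters were read for the listed genes, whatever their direction, and 3 are shown. The window was the 250 bases before the RefSeq start (GRCm38.p6), searched on both strands for the 10-base NF-κB consensus motif, with overlapping matches counted. The motif was found in 7 of 17 matched NF-κB genes (of 20 listed), 41.2%, in 7 of 32 matched genes of the migratory programme (of 42 listed), 21.9%, and in 2225 of all 27025 genes with a promoter in the table, 8.23%. It was found in 5 of 12 matched chemokine genes, 41.7%, in 2 of 9 co-stimulatory genes, 22.2%, and in 1 of 10 genes named as higher, 10.0%, which was Mmp25. None of the 4 gate markers with a promoter in the table held it. The chemokine genes with the motif were Ccl9, Cxcl1, Cxcl2, Cxcl3 and Cxcl10. Of these, Cxcl1 was at least 2-fold higher than in cDC-like cells and Cxcl10 at least 2-fold lower. Of the NF-κB genes with the motif, Rel and Nfkb2 were at least 2-fold higher, while Nfkbia and Tnfaip3 were not. Rel encodes the subunit c-Rel, Nfkbia the inhibitor that ends NF-κB activity and Mmp25 a membrane-bound metalloproteinase, one of the genes named by ratio. Their windows are chr11:23770970-23771219 for Rel, chr12:55492648-55492897 for Nfkbia and chr17:23645270-23645519 for Mmp25, all on the minus strand, given here 5′ to 3′ in the direction of transcription. Capitals mark the motif, and where matches overlap they mark their union. The first base of a match lay 92 and 91 bases before the start in Rel, 29 in Nfkbia and 88 and 51 in Mmp25.
Rel: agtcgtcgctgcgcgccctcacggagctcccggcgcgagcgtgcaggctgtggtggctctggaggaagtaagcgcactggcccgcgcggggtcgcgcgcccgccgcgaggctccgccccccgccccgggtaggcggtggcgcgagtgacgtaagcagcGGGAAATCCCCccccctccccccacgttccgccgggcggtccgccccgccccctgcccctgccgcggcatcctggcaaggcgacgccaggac
Nfkbia: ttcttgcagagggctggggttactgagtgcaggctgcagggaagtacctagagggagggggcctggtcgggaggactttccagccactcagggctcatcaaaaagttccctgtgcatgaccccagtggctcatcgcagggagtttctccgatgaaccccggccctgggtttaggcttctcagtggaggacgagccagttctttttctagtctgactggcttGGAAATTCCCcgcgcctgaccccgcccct
Mmp25: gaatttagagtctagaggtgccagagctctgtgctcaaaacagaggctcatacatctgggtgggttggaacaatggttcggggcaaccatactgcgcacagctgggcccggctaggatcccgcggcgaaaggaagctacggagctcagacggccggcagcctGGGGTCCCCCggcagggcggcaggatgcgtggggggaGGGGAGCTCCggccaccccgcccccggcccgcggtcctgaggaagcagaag
Rel was at 775 CPM in migratory DC-like cells and 262 CPM in cDC-like cells, and Mmp25 at 316 CPM in migratory DC-like cells and 7.67 CPM in cDC-like cells. A match describes the letters of the window and does not show that a factor binds there.

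Genes of survival were mostly higher, 10 of 18 at least 2-fold higher than in cDC-like cells and 2 lower (median log2 ratio 1.21). Bcl2a1b, of the anti-apoptotic A1 family, was at 910 CPM in migratory DC-like and 104 CPM in cDC-like cells, and its near-identical copies Bcl2a1a and Bcl2a1d were 12.8-fold and 5.74-fold higher, although how reads divide among the copies is uncertain. The protease inhibitors Serpinb9, which blocks granzyme B, and Serpinb6b were at 227 and 205 CPM in migratory DC-like cells, against 5.75 and 2.56 CPM in cDC-like cells. T/NK-like cells held both, at 67.3 CPM of Serpinb9 and 54 CPM of Serpinb6b. In the 79 migratory DC-like cells without T/NK markers they were at 231 and 210 CPM. Gadd45b, a stress gene induced by NF-κB, was 4.12-fold higher than in cDC-like cells, and Fas, a death receptor, 8.28-fold. Bcl2 was 4.01-fold lower, at 5.57 CPM in migratory DC-like cells.

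The transcription factors of DCs divided into some that were higher and some lower, with 8 of 26 at least 2-fold higher and 3 lower than in cDC-like cells. Those higher included Irf8 at 591 CPM in migratory DC-like and 130 CPM in cDC-like cells, and Etv3, a repressor of the ETS family, at 769 CPM in migratory DC-like and 159 CPM in cDC-like cells. Batf3, Nr4a3 and Spib were 3.04-, 3.04- and 4.45-fold higher. Irf8 and Batf3 drive the lineage of type 1 conventional DCs (cDC1), and Nr4a3 has been tied to the Ccr7-dependent migration of DCs in mice. Zbtb46, which marks conventional DCs, was at 50.2 CPM in migratory DC-like, 37.7 CPM in cDC-like and 8.3 CPM in H2-Aa-high cells. Bcl11a, needed in lymphoid and plasmacytoid DC development, was 15.8-fold lower (6.63 to 49.2) than in cDC-like cells, and Klf4, of type 2 conventional DCs (cDC2), 2.16-fold lower. Zbtb46 helped to choose the cDC-like cells, and its level in them is set by that.

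Flt3 was at the level of cDC-like cells, while surface genes of both conventional DC subsets were low or at 0. Flt3, the receptor that maintains DCs and 1 of the genes that chose the cDC-like cells, was at 237 CPM in migratory DC-like, 188 CPM in cDC-like and 50.6 CPM in H2-Aa-high cells, and at 2000 UMIs was found in 40.5% of migratory DC-like and 32.7% of cDC-like cells. Xcr1 or Clec9a, surface genes of cDC1, were found in 0 of 88 migratory DC-like cells, which allows a share of up to 3.41%. They were found in 9 of 172 cDC-like cells, 5.23% (2.42 to 9.70%), and in 14 of 1382 H2-Aa-high cells, 1.01%. Xcr1 and Clec9a also helped to choose the cDC-like cells, and these counts do not separate the groups. Cd209a, Clec10a or Mgl2, of cDC2, were found in 15 of 88 migratory DC-like cells, 17% (9.87 to 26.6%). They were found in 140 of 172 cDC-like cells, 81.4%, and in 621 of 1382 H2-Aa-high cells, 44.9%. Cd209a helped to choose the cDC-like cells. Clec10a and Mgl2 did not, and they were 7.11-fold and 5.07-fold lower than in cDC-like cells, although that choice may bear on them too. Itgam, the gene of the sorted CD11b, was found in 15 of 88 migratory DC-like and 109 of 172 cDC-like cells. Cd7 and Cd300a, high in cDC-like cells, were 26.5-fold (12.8 to 66.4) and 12.1-fold (7.46 to 20.9) lower in migratory DC-like cells. Of other DC types, Cd207, of Langerhans cells, and Siglech, of plasmacytoid DCs, each had 0 UMIs, and Aire was found in 2 cells.

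Of 11 cell cycle genes measured against cDC-like cells, 1 was at least 2-fold higher and 1 lower, with a median log2 ratio of -0.07. Mki67 or Top2a were found in 4 of 88 migratory DC-like cells, 4.55% (1.25 to 11.2%), against 25 of 172 cDC-like cells, 14.5%. All 31 Mki67 UMIs came from 1 cell. Of 18 immediate early and heat shock genes, which tissue digestion can induce, 0 were at least 2-fold higher than in cDC-like cells and 4 lower, with Fos at 797 CPM in migratory DC-like and 1691 CPM in cDC-like cells. Interferon-response genes gave 1 of 17 higher and 4 lower. Of 20 receptors for signals that stromal cells can make, 4 were higher and 4 lower; Il7r was at 277 CPM in migratory DC-like and 81.2 CPM in cDC-like cells, and Tgfbr2 at 9.75 CPM in migratory DC-like and 50.5 CPM in cDC-like cells.

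**Figure D3:**
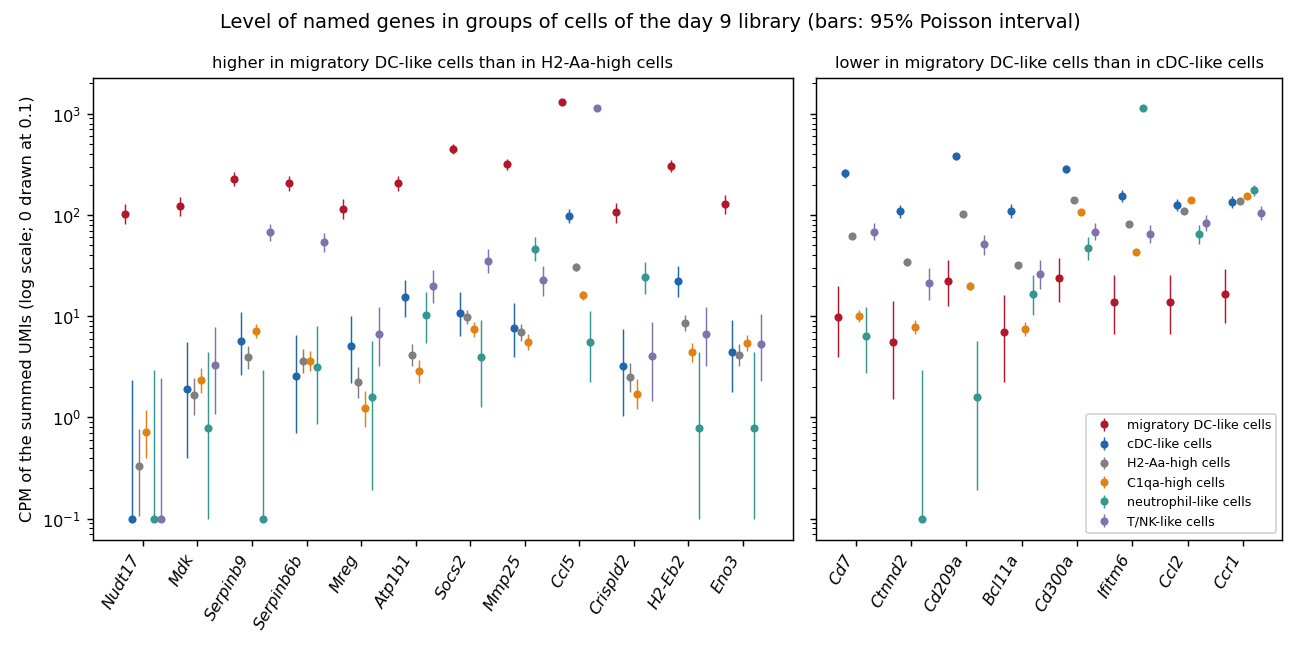
CPM with 95% Poisson intervals, on a log scale, of the 12 genes named by ratio as higher in migratory DC-like than in H2-Aa-high cells (left) and of the 8 named as lower than in cDC-like cells (right), in 6 groups of cells of the day 9 library; 0 is drawn at 0.1. Ccl5 had 1302 CPM in migratory DC-like cells and 1131 CPM in T/NK-like cells.

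The genes with the largest ratios, taken by rule with the gate's own genes and H2-Aa left out, were in part those of the lists and in part others. Over H2-Aa-high cells the 12 higher were Nudt17, Mdk, Serpinb9, Serpinb6b, Mreg, Atp1b1, Socs2, Mmp25, Ccl5, Crispld2, H2-Eb2 and Eno3, with ratios between 30.9 and 313. The 12 lower included Atp6v0d2 and Mmp9 of osteoclasts, S100a8 of neutrophils, Itgb5, and the macrophage genes Ms4a7, Pf4, Selenop, Apoe, Arg1, Cx3cr1, C1qb and C1qc, between 12.4-fold and 81.2-fold lower. Atp6v0d2, at the 81.2-fold end, had 1 UMI in migratory DC-like cells, with an interval of 14.6-fold to 3209-fold. Apoe was at 116 CPM in migratory DC-like cells, against 2508 CPM in H2-Aa-high cells. The gate asked for no C1qa and no Ctsk, which bears on these macrophage and osteoclast genes. Against H2-Aa-high cells with C1qa and Ctsk at 0, C1qb was 1.12-fold lower, C1qc 1.79-fold and Mmp9 1.46-fold, all short of 2-fold. Apoe was 11.0-fold lower in that comparison and Ms4a7 9.54-fold.

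Over cDC-like cells the 8 higher were Serpinb6b, Mdk, Nudt17, Socs2, Mmp25, Serpinb9, Cd200 and Crispld2, and the 8 lower were Cd7, Ctnnd2, Cd209a, Bcl11a, Cd300a, Ifitm6, Ccl2 and Ccr1. Mmp25 was found in 50 of the 88 migratory DC-like cells, and its ratio over cDC-like cells was 41.2 (23.2 to 81). Mreg (melanoregulin), which acts on melanosome and lysosome traffic, was at 116 CPM in migratory DC-like, 5.11 CPM in cDC-like and 2.24 CPM in H2-Aa-high cells. Eno3, the muscle form of enolase, was at 128 CPM in migratory DC-like and 4.47 CPM in cDC-like cells. Mdk, Atp1b1 and Crispld2 differed from the other named genes in being held by few cells, in 17, 17 and 16 of the 88.

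Those 3 genes were found in the same cells. Of the 88 migratory DC-like cells, 65 held none of Mdk (midkine, a secreted growth factor), Atp1b1 (a sodium pump subunit) and Crispld2 (a secreted lipopolysaccharide-binding protein), 7 held 1, 5 held 2 and 11 held all 3. The 16 cells with at least 2 of them were set against the other 72; this division was chosen after the values were seen, so it is a description. Outside the migratory DC-like cells, 23 of 5857 kept cells held at least 2, and 8 of these were among the 55 cells left out of the gate for C1qa or Ctsk, while 1 of 172 cDC-like cells did. The 16 cells had a median of 6333.5 UMIs, against 7209.5 in the other 72. Of the 16, 12 lay in the cluster led by Fscn1, Ccl22 and Ccr7, 1 in that led by Ifitm1 and 3 in that led by Ikzf2, against 55, 14 and 3 of the other 72. At least 3 T/NK markers were found in 3 of the 16 and 6 of the 72. Of the 16, 10 met 3 of the gate's conditions, 3 met 4 and 3 met 5.

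The 16 cells differed from the other 72 in genes beyond those 3. Cst3 (cystatin C), a protease inhibitor abundant in conventional DCs, ranged from 0 to 21.7 UMIs per 10000 with a median of 3.32 in the 16 cells, against 4.15 to 396 with a median of 84.6 in the other 72. Its level was 839 CPM in the 16 cells and 12620 CPM in the other 72, 15-fold lower (12.7 to 18), with 3494 CPM in cDC-like cells. The ranges overlapped, while the highest of the 16 lay below the median of the 72. Ccl22 was found in 3 of the 16 and 57 of the 72, at 37.6 CPM in the 16 cells and 1796 CPM in the 72. Irf8 was at 62.6 CPM in the 16 cells and 742 CPM in the other 72, Tspan3, a tetraspanin, at 6.26 CPM in the 16 and 400 CPM in the 72, and Il12b in 0 of 16 and 14 of 72 cells. Ccr7 was found in 10 of the 16 and in 72 of the 72. Ccr7 and Ccl22 are gate markers, and the choice of cells by 3 of 5 conditions bears on how often each is found.

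Other genes were higher in the 16 cells. Adam23, a disintegrin of the cell surface, was at 376 CPM in them and 46.6 CPM in the other 72, a ratio of 8.06 (5.01 to 13.3), and was found in 12 of the 16 and 10 of the 72. Ly86 (MD-1), which partners Cd180, was at 413 CPM in the 16 cells and 68.1 CPM in the 72. Tcf7, a transcription factor of T cells and early lymphoid cells, was found in 12 of the 16 and 12 of the 72, at 250 CPM in the 16 and 46.6 CPM in the 72. Without the cells that held at least 3 T/NK markers it was at 414 CPM in 13 of the 16 and 48.5 CPM in 66 of the 72. Kit, the receptor for stem cell factor, was 3.49-fold higher (1.99 to 6.12) in the 16. Lyz2 was at 1389 CPM in the 16 cells and 335 CPM in the 72. The 1 cell with Mki67 was among the 16.

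Many genes of the migratory programme beyond the gate were lower in the 16 cells. Of 38 genes of that list measured, 20 were at least 2-fold lower and 2 higher than in the other 72, with a median log2 ratio of -1.11, against a median of 0.13 over all 4381 genes measured, of which 10% were lower and 12% higher. The 16 cells also met fewer of the gate's conditions than the 72, and the part of that in these differences was not tested. Tmem123 was at 914 CPM in the 16 cells and 2460 CPM in the other 72, and Mmp25 at 31.3 CPM in the 16 and 398 CPM in the 72. Marcks was at 764 CPM in the 16 and 2221 CPM in the 72. Ccl5 was at 150 CPM in the 16 and 1631 CPM in the 72, Ccl17 at 12.5 CPM in the 16 and 285 CPM in the 72, and Cd40 at 75.1 CPM in the 16 and 235 CPM in the 72. These examples and those that follow were chosen after the values were seen. Some genes lay closer together. Fabp5 was at 4901 CPM in the 16 cells and 5157 CPM in the other 72, with a ratio of 0.95 (0.877 to 1.03), Socs2 at 488 CPM in the 16 and 443 CPM in the 72, and Tbc1d4 at 2109 CPM in the 16 and 1721 CPM in the 72. Relb was at 376 CPM in the 16 and 443 CPM in the 72, with a ratio interval of 0.629 to 1.13, and Flt3 at 257 CPM in the 16 and 231 CPM in the 72. Fscn1 was found in 16 of the 16 cells and in 50 of the 72. With the 16 cells left out, 943 genes were at least 2-fold higher than in H2-Aa-high cells, and of the named genes Mdk was no longer so.

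**Figure D4:**
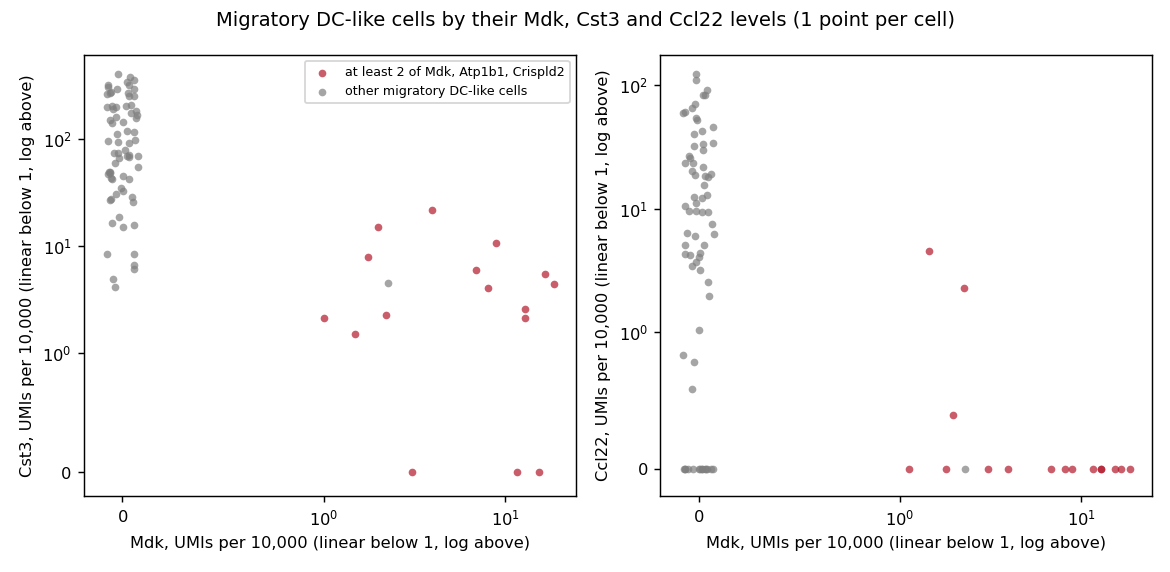
Mdk against Cst3 (left) and against Ccl22 (right) in the 88 migratory DC-like cells, 1 point a cell, in UMIs per 10000 on axes linear below 1 and logarithmic above; points at an Mdk of 0 are spread sideways so that they can be seen. The 16 cells with at least 2 of Mdk, Atp1b1 and Crispld2 had Cst3 between 0 and 21.7, against 4.15 to 396 in the other 72.

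Some genes the gate did not use were also read by the number of conditions a migratory DC-like cell met. How many of all genes ran in the same order was not counted, so the counts of listed genes have no background here. Of 35 genes of the migratory programme with at least 50 UMIs in these cells, 16 were higher at each step in cells that met 3, 4 and 5 conditions, 0 were lower at each step and 19 did neither. Relb, for example, was at 383 CPM in cells that met 3, 455 CPM in those that met 4 and 437 CPM in those that met 5. Fabp5 was at 3052 CPM in cells that met 3 conditions, 4742 CPM in those that met 4 and 6390 CPM in those that met 5. Marcks was at 1050, 1683 and 2466 CPM in cells that met 3, 4 and 5, and Mmp25 at 65.6, 319 and 448 CPM. H2-Ab1 ran the other way, at 8445 CPM in cells that met 3, 6619 CPM in those that met 4 and 5068 CPM in those that met 5. Mdk was at 334, 78.4 and 34.9 CPM in cells that met 3, 4 and 5. The median UMI counts of these cells were 6035, 6567 and 8417.5, so that cells with more conditions were also deeper, and the part of depth in these orders was not tested.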

How the data were processed

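Per the file headers and the labels' protocols, the deposited files hold UMI counts per gene and cell barcode, made by the authors with Cell Ranger on the 10x Genomics mouse reference; Seurat 4.3.0 is named in the submitters' processing notes without a role. No counts were normalized before deposit. Barcodes under 500 genes, under 1000 UMIs or over 10% mitochondrial UMIs were dropped, and no doublets were removed. The members, comparison groups and gene lists were chosen with earlier results of these data known.

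Counts were summed over each group of cells and scaled to CPM. Ratios carry exact conditional binomial 95% intervals, levels exact Poisson intervals and shares exact Clopper-Pearson intervals; a count of 0 was read as at most 3 counts. Genes with at least 20 UMIs over both groups were measured. With 1 library a group, no p-value was computed. The genes named by ratio had at least 100 CPM in the higher group and 50 UMIs over both, and were found in at least 10% of the higher group's cells. Those higher in migratory DC-like cells also had at most 20% of their UMIs there from 1 cell. No such limit was set for the genes lower. The 12 largest in each direction over H2-Aa-high cells and the 8 over cDC-like cells were taken, leaving out mitochondrial and sex-linked genes. Genes named from the lists were those at least 3-fold apart from H2-Aa-high cells or among the 3 of highest level; other genes in the text, and the 16 cells with Mdk, Atp1b1 and Crispld2, were chosen after their values were seen. C1qa-high, neutrophil-like and T/NK-like cells were chosen by marker counts. Shares at equal depth used cells thinned to 2000 UMIs. Clusters came from Leiden clustering, and promoters from RefSeq.

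Tools were Python 3.11.15, numpy 2.4.6, scipy 1.17.1, pandas 2.3.3, scanpy 1.11.5, leidenalg 0.10.2 and R 4.3.3; edgeR 4.0.16 (TMM) and DESeq2 1.42.0 (size factors) gave alternative scalings of the counts. The ratio procedure was checked on simulated data. Alternatives changed the scaling, the minimum of UMIs, the depth, the cell filter, the gate and the comparison cells. Some genes of the lists are not reported here.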

Additional observations from a re-analysis of the deposited data

How the results depend on the processing

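With 1 library a group, nothing separates a difference between cells from a difference between mice, and depth limits genes of low count. No paired analysis was possible because each group holds 1 library. Without the condition on C1qa and Ctsk the gate held 143 cells, while the cDC-like cells kept that condition. Ratios for the 143 cells were chosen after seeing the data. They gave 1276 genes at least 2-fold lower than in H2-Aa-high cells and 636 lower than in cDC-like cells. The median log2 ratio over cDC-like cells changed sign, to 0.19 for antigen uptake and 0.078 for cDC1 genes. Among genes with at least 50 CPM, also chosen afterwards, 409 were higher and 517 lower than in H2-Aa-high cells, and 376 higher and 398 lower than in cDC-like cells. With no minimum of UMIs and 0.5 added, 4877 were higher than in H2-Aa-high cells, and 2341 higher and 2421 lower than in cDC-like cells. At 2000 UMIs a cell, 412 were higher and 643 lower than in cDC-like cells. The other counts of genes stayed within 1.5 times. DESeq2 size factors gave 1447 higher and 1572 lower than in H2-Aa-high cells, and 835 higher and 895 lower than in cDC-like cells. The named genes gave 40 ratios, with a gene named in both comparisons counted in each. Without the condition on C1qa and Ctsk, 33 of 40 ratios kept a 2-fold difference in the same direction. Those that did not were Apoe, C1qc, Itgb5, Ms4a7, Pf4 and Selenop over H2-Aa-high cells and Ccl2 over cDC-like cells. Leaving out the 9 cells with T/NK markers, chosen afterwards, kept 40 of 40 ratios.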
